A study of Mus musculus with 15 samples.

Results

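The 10 genes described here are the forkhead box O (FoxO) factors Foxo1 and Foxo3 and 8 genes known as FoxO or muscle atrophy targets, Fbxo32, Trim63, Depp1, Txnip, Cdkn1a, Sesn1, Pik3ip1 and Irs2. They were chosen by name from a list drawn up with earlier results of these libraries known, and all 10 were found among the 17447 genes of the count table. Their differences between groups are therefore given as a description, with a log2 fold change and its standard error (SE) but without p-values. All 10 passed the filter on low counts, which kept 13021 genes. Heart RNA of 15 male C57BL/6J mice was sequenced 18 weeks after surgery, in 5 groups of 3. WTSHAM mice were wild type and sham-operated. The other mice had chronic kidney disease (CKD) after subtotal nephrectomy and were wild type (WT) or rnls-/- (KO), lacking renalase. They received the empty vector (WTCKD and KOCKD) or AAV9-cTnT-RNLS, in which the cardiac troponin T promoter drives renalase in cardiomyocytes (WTCKD + RNLS and KOCKD + RNLS). No sham-operated knockout and no sham-operated mouse labelled as given a virus was among these libraries, Rnls itself was not analysed here, and so the genotype rests on the labels.

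FoxO factors are transcription factors at the end of the insulin and IGF pathway. Insulin signalling through PI3K and AKT leads to their phosphorylation and keeps them out of the nucleus, and when the signal is low they enter it and switch on genes of protein breakdown, autophagy, stress defence, growth arrest and fuel choice. Because this switch acts on the protein, the mRNA of a FoxO factor does not report its activity. In striated muscle the pathway is best known for the ubiquitin ligases atrogin-1 and MuRF1, encoded by Fbxo32 and Trim63, which mark muscle proteins for degradation during wasting.

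The promoters are shown because a FoxO factor binds DNA directly. RefSeq promoter windows on GRCm38.p6, from 250 bases before to 50 after the annotated start of a gene, were matched by symbol for 9 of the 10 genes, with 11 windows in all. The FoxO core GTAAACA, searched on both strands with its reverse complement TGTTTAC, was present in 3 of the 11 windows and in 3.65% of 32851 windows of all genes. The related core ATAAACA, with its reverse complement TGTTTAT, was present in 0 of the 11 windows and in 4.6% of all windows. The windows with a match belonged to Txnip, Trim63 and Sesn1. In Txnip the match began 121 bases before the start, on the strand of the gene. In Trim63 it began 194 bases before the start, on the opposite strand. In the upstream window of Sesn1 it began at base 23 after the start, on the opposite strand, and only 29 bases around it are shown. Capitals mark the match in each sequence, written 5′ to 3′ on the strand of the gene, and the Txnip and Trim63 stretches end at the last base before the start. A match in such a window is a description of its letters and not a measured binding site.
Txnip, chr3:96557707-96557956 (plus strand): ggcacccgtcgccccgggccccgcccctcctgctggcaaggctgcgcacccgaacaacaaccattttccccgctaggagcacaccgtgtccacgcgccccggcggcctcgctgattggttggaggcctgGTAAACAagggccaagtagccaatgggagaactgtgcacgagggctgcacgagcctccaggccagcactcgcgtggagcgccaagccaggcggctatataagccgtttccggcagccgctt
Trim63, chr4:134314870-134315119 (plus strand): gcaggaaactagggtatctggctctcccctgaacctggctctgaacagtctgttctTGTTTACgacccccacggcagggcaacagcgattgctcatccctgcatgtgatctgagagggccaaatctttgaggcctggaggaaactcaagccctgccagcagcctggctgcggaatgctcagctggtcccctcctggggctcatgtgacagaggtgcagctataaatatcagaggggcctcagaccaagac
Sesn1, chr10:41810585-41810613 (plus strand): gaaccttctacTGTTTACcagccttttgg

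Libraries held 10480788 to 13424078 counted reads. Levels are given as CPM, which scale each library's counts to a common size after TMM normalization, and values for 3 hearts of a group are given in the order of the replicates 1, 2 and 3. Cardiomyocyte markers summed to between 71529 and 96185 CPM in every library, whereas 8 markers of skeletal muscle, the tissue in which atrogin-1 and MuRF1 were mostly studied, summed to between 1.49 and 7.51 CPM. On the first principal component WTSHAM replicate 1 stood at -0.7, away from WTSHAM replicates 2 and 3 at -35 and -34.1. WTCKD replicate 3 stood at 7.9 there, away from WTCKD replicates 1 and 2 at -20.9 and -31.9. On the second component WTCKD + RNLS replicate 2 stood at -11.9, and replicates 1 and 3 at 20.1 and 17.2. The sample name of WTSHAM replicate 1 carries the same prefix (WM) as 4 of the 6 RNLS-treated libraries, and the WTCKD libraries carry that prefix in lower case. All KOCKD libraries carry the prefix s and all KOCKD + RNLS libraries the prefix WM, so prefix and treatment coincide in that comparison. WTSHAM replicates 2 and 3 carry WT, and WTCKD + RNLS replicates 1 and 2 carry RM. The paper names alternative sequencing platforms and read lengths and does not say which libraries had which. No sequencing batch is given in the labels, and the part of a batch was not tested. Per length, in the FPKM deposited by the authors (mean ± SD over 15 libraries), Txnip was the most abundant of the 10 genes with 274 ± 126, followed by Trim63 with 122 ± 20.8, Depp1 with 59.3 ± 37.7, Sesn1 with 49.6 ± 7.44 and Fbxo32 with 32.1 ± 5.06. Foxo3 transcripts, at 20.7 ± 4.85 FPKM, were more abundant per length than Foxo1 transcripts at 6.8 ± 0.815 FPKM. The lowest of the 10 was Irs2 with 3.42 ± 1.21 FPKM. In bulk heart RNA, fewer cells of a type and less RNA per cell cannot be told apart.

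Foxo1 (mm9 chr3:52072259-52154031, plus strand), the family member most closely tied to insulin action, stood at 38.5, 33.9 and 38.8 CPM in WTSHAM, 44, 41.6 and 44.4 in WTCKD, 32.9, 34.5 and 37.7 in WTCKD + RNLS, 37, 31 and 32.1 in KOCKD and 41.3, 40.4 and 38.2 in KOCKD + RNLS. The 3 WTCKD hearts were above all other hearts. The order of the group means ran from KOCKD over WTCKD + RNLS, WTSHAM and KOCKD + RNLS to WTCKD, and the lowest 3 groups lay within an SD of their neighbours, here and below the larger SD of the 2 groups compared. The difference was 0.23 (SE 0.09) on the log2 scale for WTCKD against WTSHAM and -0.31 (SE 0.09) for WTCKD + RNLS against WTCKD. It was 0.26 (SE 0.09) for KOCKD + RNLS against KOCKD. None of these was past the threshold, by which is meant an adjusted p under 0.05 (edgeR quasi-likelihood fit, Benjamini-Hochberg, 13021 genes). With DESeq2 the wild-type RNLS difference was past it (-0.30), and so was the knockout one without KOCKD replicate 1 (0.34).

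Foxo3 (mm9 chr10:41901647-41996561, minus strand), the factor tied most firmly to atrophy genes and autophagy in muscle, stood at 144, 98 and 101 CPM in WTSHAM, 120, 111 and 132 in WTCKD, 191, 146 and 185 in WTCKD + RNLS, 115, 117 and 113 in KOCKD and 182, 195 and 167 in KOCKD + RNLS. All 6 RNLS-treated hearts were above the 9 others, with WTSHAM replicate 1 the nearest below them. The 3 groups without RNLS lay within an SD of their neighbours, and so did the 2 RNLS-treated groups. WTCKD and WTSHAM differed by 0.08 (SE 0.13), with a 95% interval from -0.20 to 0.37. RNLS-treated hearts were higher by 0.52 (SE 0.13) in the wild type and 0.66 (SE 0.13) in the knockout, both past the threshold. The wild-type value was no longer past it without WTCKD replicate 1 or 2 (0.51 and 0.47) or WTCKD + RNLS replicate 1 or 3 (0.45 and 0.48). The knockout value stayed past it without any 1 library but not in the fit with gene length offsets (0.49). Foxo4, the third family member expressed in heart, lay between 59.2 and 80.6 CPM and Foxo6, known mainly from brain, between 2.62 and 7.99 CPM. Neither was past the threshold in any comparison. The Foxo4 differences were -0.12 (SE 0.08) for WTCKD against WTSHAM, -0.15 (SE 0.08) for RNLS in the wild type and 0.15 (SE 0.08) in the knockout, and those of Foxo6 were 0.16 (SE 0.31), -0.75 (SE 0.33) and 0.38 (SE 0.32).

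**Figure D1:**
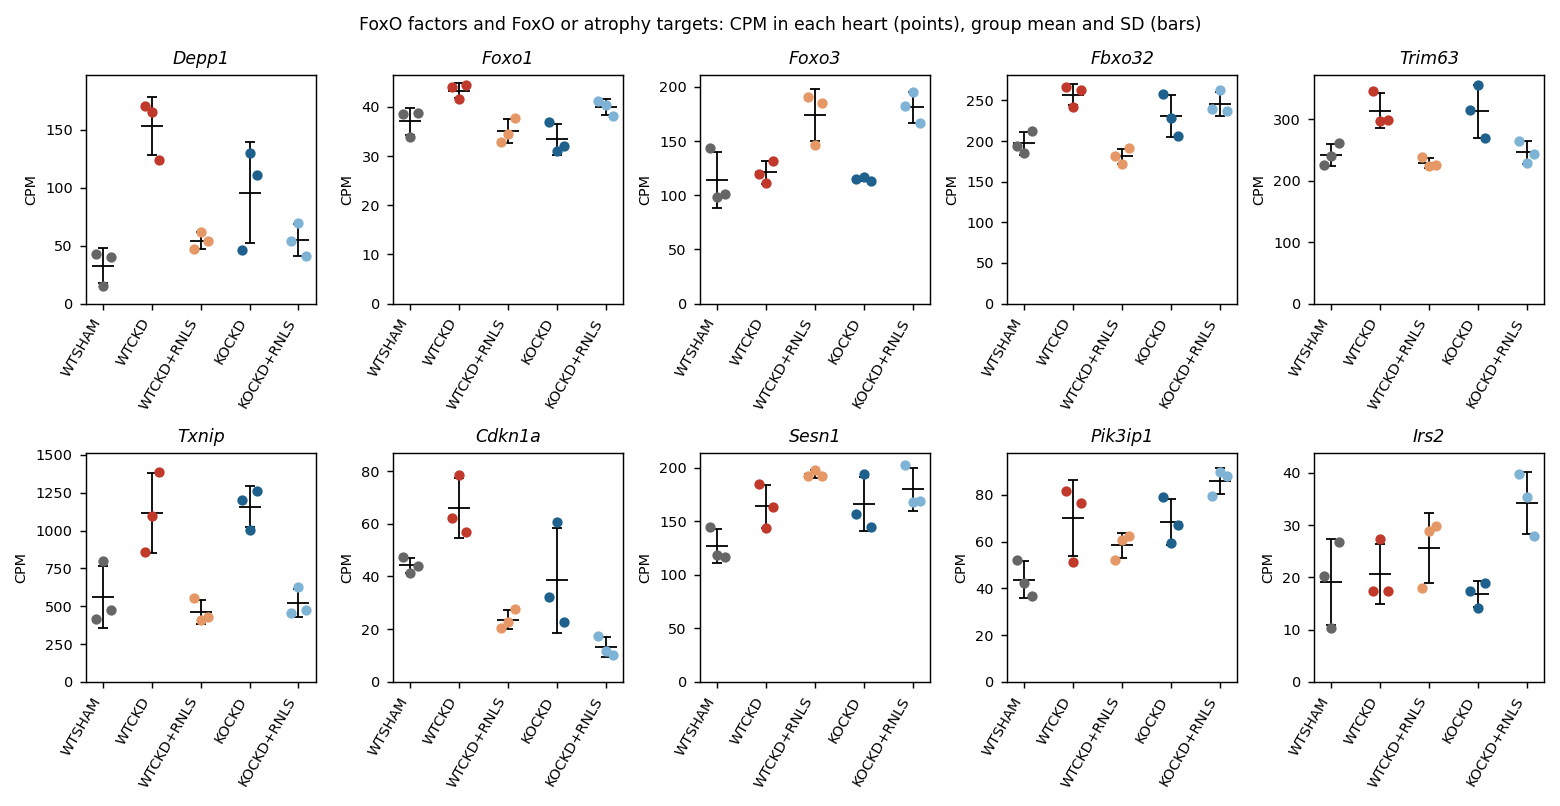
CPM (vertical axis, from 0) of the 10 genes in each of 15 hearts (points), with the mean and SD of each group of 3 (black bars). The 6 RNLS-treated hearts are the highest for Foxo3, and those of Cdkn1a lie lowest, from 10.3 to 27.7 CPM, with KOCKD replicate 3 at 22.6 among them.

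Fbxo32 (mm9 chr15:58011634-58046433, minus strand), which encodes the F-box protein atrogin-1, stood at 194, 185 and 212 CPM in WTSHAM, 266, 242 and 263 in WTCKD, 182, 172 and 191 in WTCKD + RNLS, 258, 228 and 206 in KOCKD and 239, 263 and 237 in KOCKD + RNLS. WTCKD hearts did not overlap with WTSHAM or WTCKD + RNLS hearts, while KOCKD and KOCKD + RNLS hearts overlapped. The difference was 0.38 (SE 0.09) for WTCKD against WTSHAM, past the threshold. That value was no longer past it without WTSHAM replicate 1 or 2 (0.37 and 0.34) or WTCKD replicate 1 or 3 (0.36 and 0.37). With RNLS the level was lower in the wild type by -0.50 (SE 0.09), past the threshold without any 1 library as well. In the knockout the difference was 0.10 (SE 0.09), with a 95% interval from -0.09 to 0.28. Of the 10 genes, only Fbxo32 was past the threshold in KOCKD + RNLS against WTCKD + RNLS, at 0.44 (SE 0.09), and leaving out any 1 of these 6 libraries ended this call (0.39 to 0.47). In order of the means, WTCKD + RNLS was the lowest and WTCKD the highest, and KOCKD, KOCKD + RNLS and WTCKD lay within an SD of their neighbours.

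Trim63 (mm9 chr4:133871035-133885544, plus strand), which encodes the ring finger ligase MuRF1 of the sarcomere, stood at 225, 240 and 261 CPM in WTSHAM, 346, 297 and 298 in WTCKD, 239, 224 and 225 in WTCKD + RNLS, 315, 355 and 269 in KOCKD and 265, 228 and 244 in KOCKD + RNLS. All 6 vector-treated CKD hearts were above the 9 others. Means of WTCKD + RNLS, WTSHAM and KOCKD + RNLS lay within an SD of their neighbours, as did KOCKD and WTCKD. WTCKD against WTSHAM gave 0.38 (SE 0.10), with a 95% interval from 0.16 to 0.59, not past the threshold with edgeR and past it with DESeq2 (0.38). With RNLS the level was lower by -0.45 (SE 0.10) in the wild type and -0.35 (SE 0.10) in the knockout, both past the threshold. The wild-type value was no longer past it without WTCKD replicate 1 (-0.38) or WTCKD + RNLS replicate 3 (-0.44). The knockout value was no longer past it with gene length offsets (-0.23), without KOCKD replicate 1 or 2 (-0.35 and -0.24) or without KOCKD + RNLS replicate 2 or 3 (-0.29 and -0.34).

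Pik3ip1 (mm9 chr11:3230404-3242974, plus strand), which encodes an inhibitor of PI3K, stood at 52.3, 42.3 and 36.9 CPM in WTSHAM, 81.7, 51.5 and 76.7 in WTCKD, 52.3, 60.8 and 62.3 in WTCKD + RNLS, 79, 59.3 and 67.3 in KOCKD and 79.5, 90 and 88 in KOCKD + RNLS. WTSHAM was the lowest group and KOCKD + RNLS the highest, although WTCKD replicate 2 lay just under WTSHAM replicate 1. KOCKD, WTCKD and KOCKD + RNLS lay within an SD of their neighbours. The difference of WTCKD from WTSHAM was 0.68 (SE 0.16), past the threshold, and no longer past it without WTSHAM replicate 2 or 3 (0.66 and 0.57) or WTCKD replicate 1 or 3 (0.56 and 0.61). The RNLS differences were -0.26 (SE 0.16) in the wild type and 0.32 (SE 0.16) in the knockout, neither past the threshold, and the latter was past it in the fit on the KOCKD and KOCKD + RNLS libraries alone (0.33). With DESeq2 the difference of KOCKD + RNLS from WTCKD + RNLS (0.54) was past the threshold too, and with edgeR it was not (0.55, SE 0.16).

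Irs2 (mm9 chr8:10986980-11008458, minus strand), which encodes an adaptor between the insulin receptor and PI3K, stood at 20.3, 10.4 and 26.8 CPM in WTSHAM, 17.3, 27.3 and 17.3 in WTCKD, 17.9, 28.8 and 29.9 in WTCKD + RNLS, 17.4, 14.1 and 19 in KOCKD and 39.7, 35.4 and 27.9 in KOCKD + RNLS. Except for KOCKD + RNLS, the groups lay within an SD of their neighbours. KOCKD + RNLS hearts did not overlap with KOCKD hearts, and the difference of 1.03 (SE 0.28), a 2.04-fold higher level, was past the threshold. It was no longer past it with gene length offsets (0.86), without KOCKD replicate 1 or 2 (1.05 and 0.92) or without KOCKD + RNLS replicate 1 or 2 (0.91 and 1.01). In the wild type the RNLS difference was 0.31 (SE 0.28), with a 95% interval from -0.28 to 0.90. WTCKD against WTSHAM gave 0.10 (SE 0.28).

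Depp1 (mm9 chr6:116600702-116602865, plus strand, annotated there as 8430408G22Rik), a small FoxO target that regulates autophagy, stood at 42.8, 15.2 and 40.5 CPM in WTSHAM, 170, 165 and 124 in WTCKD, 47.2, 61.6 and 54.1 in WTCKD + RNLS, 46.5, 130 and 111 in KOCKD and 54, 69.1 and 41.2 in KOCKD + RNLS. WTCKD did not overlap with WTSHAM or with WTCKD + RNLS. KOCKD replicates 2 and 3 were at the height of WTCKD replicate 3, while KOCKD replicate 1 was at the height of the RNLS-treated hearts. Of the 10 genes it showed the largest difference between WTCKD and WTSHAM, 2.22 (SE 0.35) on the log2 scale or a 4.67-fold higher level, past the threshold in 6 of 6 fits that each left out 1 of these libraries. With RNLS it was lower by -1.49 (SE 0.34) in the wild type, past the threshold, but not without WTCKD replicate 1 or 2 (-1.42 and -1.43) or WTCKD + RNLS replicate 1 or 3 (-1.41 and -1.49). In the knockout the value was -0.80 (SE 0.34), not past the threshold, and -1.14 and past it without KOCKD replicate 1. The means of WTCKD + RNLS, KOCKD + RNLS and KOCKD lay within an SD of their neighbours.

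Txnip (mm9 chr3:96361880-96365806, plus strand) encodes a thioredoxin-binding protein that restrains glucose uptake. It stood at 415, 797 and 478 CPM in WTSHAM, 861, 1096 and 1390 in WTCKD, 556, 407 and 429 in WTCKD + RNLS, 1205, 1004 and 1264 in KOCKD and 455, 626 and 476 in KOCKD + RNLS. The 6 vector-treated CKD hearts were above the 9 others, the nearest being WTSHAM replicate 2. WTCKD against WTSHAM gave 0.99 (SE 0.22), a 1.98-fold higher level past the threshold, and no longer past it without WTSHAM replicate 1 or 3 (0.81 and 0.88) or WTCKD replicate 2 or 3 (0.99 and 0.80). With RNLS the level was lower by -1.26 (SE 0.22) in the wild type and -1.16 (SE 0.22) in the knockout. Both were past the threshold in 6 of 6 fits without 1 of their libraries. The means of both RNLS-treated groups and WTSHAM lay within an SD of their neighbours, and so did those of WTCKD and KOCKD.

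Cdkn1a (mm9 chr17:29227924-29237667, plus strand) encodes the cell cycle inhibitor p21, a target of p53 as well as of FoxO. It stood at 47.3, 41.5 and 44 CPM in WTSHAM, 62.2, 78.6 and 56.9 in WTCKD, 20.5, 22.7 and 27.7 in WTCKD + RNLS, 32.3, 60.7 and 22.6 in KOCKD and 17.6, 11.6 and 10.3 in KOCKD + RNLS. All 3 WTCKD hearts were above WTSHAM and above WTCKD + RNLS, and KOCKD was the most scattered group. With RNLS the level was lower by -1.48 (SE 0.27) in the wild type and -1.54 (SE 0.28) in the knockout, both past the threshold in 6 of 6 fits without 1 library. In the knockout, the value ranged from -1.81 to -1.05, and it was nearest 0 without KOCKD replicate 2. WTCKD against WTSHAM gave 0.57 (SE 0.26), not past the threshold. KOCKD + RNLS was the lowest group, and its difference from WTCKD + RNLS was -0.84 (SE 0.29) without being past the threshold. WTCKD + RNLS, KOCKD and WTSHAM lay within an SD of their neighbours, below WTCKD.

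Sesn1 (mm9 chr10:41530380-41628230, plus strand) encodes sestrin 1, a stress-induced inhibitor of mTORC1. It stood at 145, 119 and 117 CPM in WTSHAM, 185, 144 and 163 in WTCKD, 192, 198 and 192 in WTCKD + RNLS, 157, 194 and 145 in KOCKD and 203, 168 and 169 in KOCKD + RNLS. WTSHAM was the lowest group, and the other 4 lay within an SD of their neighbours. No comparison was past the threshold. The differences were 0.37 (SE 0.12) for WTCKD against WTSHAM, 0.24 (SE 0.12) for RNLS in the wild type and 0.12 (SE 0.12) in the knockout.

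The annotation gives exons on the opposite strand over part of 5 of the 10 genes. The annotated exons of several of these genes differ in length from those behind the deposited FPKM (Fbxo32 2722 against 6936 bases, Irs2 4024 against 6794, Pik3ip1 4272 against 2243), so the overlap in the counting may differ from the one given. The shared stretch was 674 bases in Foxo1, 606 in Txnip, 186 in Fbxo32, 162 in Irs2 and 91 in Pik3ip1. The paper names a stranded library kit, so the reads should carry their strand. The strand setting of the counting is not given in the sources used here, so the counts may not tell reads of these genes and of their antisense partners apart.

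WTCKD against WTSHAM sets wild-type hearts with CKD and vector against sham-operated hearts not labelled as given a virus. The parts of CKD and of the vector cannot be told apart. In this comparison 4 of the 10 genes were past the threshold, all higher (Depp1, Txnip, Pik3ip1 and Fbxo32). Over all genes tested 2.3% were past it, 0.599% higher and 1.7% lower. All 10 differences were above 0, with a median of 0.38, against a median of -0.01 over all genes. The fit on these 6 libraries alone left 1 of the 4 (Depp1), without WTCKD replicate 3 the count was also 1, and without WTCKD replicate 1 or any of the 3 WTSHAM replicates it was 2. The other genes of the pathway were 177 in 10 lists, written from general knowledge but with earlier results of these data known. Such lists are not independent of these data. Of the 171 genes tested, 7 passed the test, 5 higher and 2 lower, or 4.09%. DESeq2 called 11. Without WTSHAM replicate 2 or 3 the count was 3, without WTCKD replicate 1 it was 1, and without WTCKD replicate 3 it was 2. Of 26 genes of the insulin, IGF and AKT arm, Sgk1, a kinase that phosphorylates FoxO factors, rose by 1.07 (SE 0.27, adjusted p = 0.0469), and Pik3r1, the regulatory subunit of PI3K, fell by 0.79 on the log2 scale (SE 0.14, adjusted p = 0.00608). Pik3r1 stood at 193, 135 and 144 CPM in WTSHAM and at 92.9, 92.7 and 87.5 in WTCKD. The protein turnover lists each held 1 gene that rose. These were Zfand5, a ubiquitin-binding activator of the proteasome (0.37, SE 0.08, adjusted p = 0.0168; 1 of 21), and Gabarapl1, a protein of the autophagosome membrane (0.66, SE 0.14, adjusted p = 0.0198; 1 of 23). Of 25 stress, cell cycle and death targets, the transcriptional regulator Cited2 rose by 0.59 (SE 0.12, adjusted p = 0.0149), and the death ligand Tnfsf10 fell by 1.03 (SE 0.21, adjusted p = 0.0142). Klf15, a glucocorticoid-induced factor that acts against hypertrophy, rose by 0.55 (SE 0.14, adjusted p = 0.0491), 1 of 7 growth brakes and genes of the myostatin arm. None of 18 FoxO modifiers, 7 metabolic targets, 10 p53 targets and 34 proteasome subunits passed with edgeR, with 4, 0, 1 and 0 at an unadjusted p under 0.05. Only Pik3r1 was called in all 6 fits without 1 library. Sgk1 and Klf15 were called in 1 of 6, Zfand5 and Gabarapl1 in 2, Tnfsf10 in 4 and Cited2 in 5.

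Both Sgk1 and Klf15 are also in the list of glucocorticoid-induced genes, of which they were the 2 of 10 that passed here. That list summed to 850, 476 and 495 CPM in WTSHAM and to 771, 848 and 695 in WTCKD, so WTSHAM replicate 1 lay with the CKD hearts. The genes most abundant in the atria summed to 148, 428 and 1147 CPM in WTSHAM and 1254, 2332 and 84.7 in WTCKD. Red cell transcripts, 5 of 5 lower at an unadjusted p under 0.05 and none past the threshold, summed to 625, 462 and 68.5 CPM in WTSHAM and 38, 107 and 46.4 in WTCKD. Their part in the differences above was not tested.

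**Figure D2:**
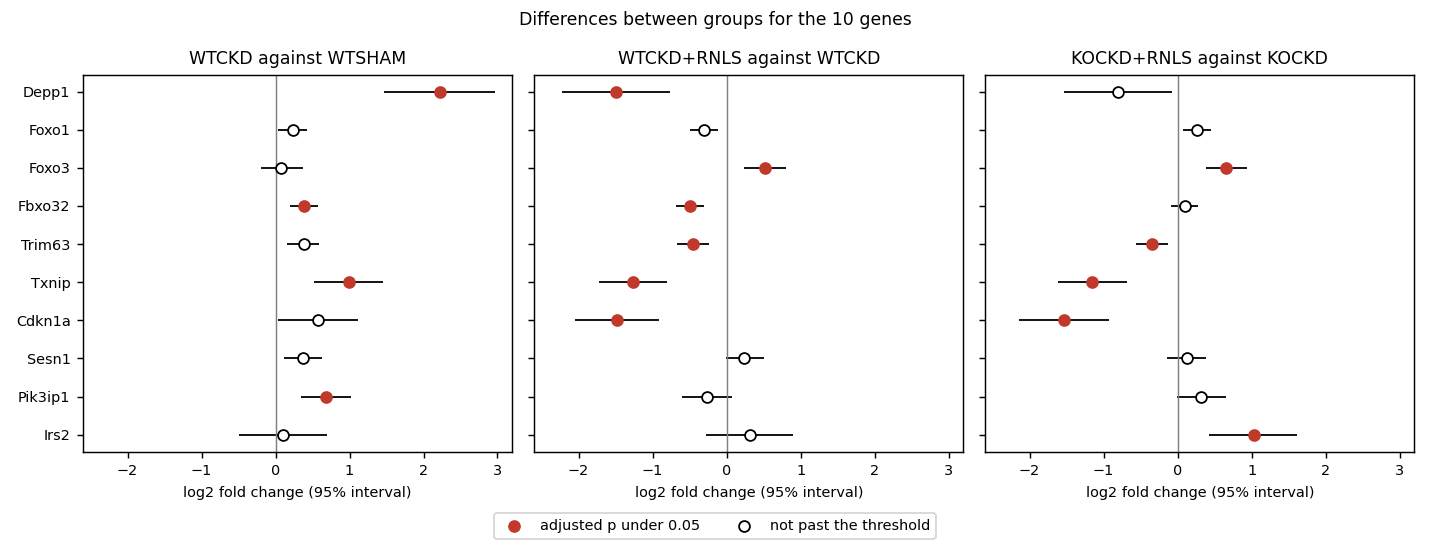
Log2 fold change (horizontal axis) of the 10 genes in 3 comparisons, with a 95% interval derived from edgeR's test as a line. Filled points have an adjusted p under 0.05. In WTCKD against WTSHAM all points lie above 0 and 4 are filled, whereas 5 of the 6 filled points of WTCKD + RNLS against WTCKD and 3 of the 5 of KOCKD + RNLS against KOCKD lie below 0.

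In WTCKD + RNLS against WTCKD, 5 of the 10 genes were lower past the threshold (Depp1, Txnip, Cdkn1a, Fbxo32 and Trim63) and 1 was higher (Foxo3). Over all genes 4.47% were past it, 2.28% lower and 2.19% higher. The median of the 10 was -0.38, against 0.01 over all genes. The comparison shares the WTCKD libraries with the comparison before. The count of 6 was 3 without WTCKD replicate 1 or without WTCKD + RNLS replicate 3. Of the other pathway genes, 12 of 171 passed the test, 9 lower and 3 higher, or 7.02%, and 15 with DESeq2. Without WTCKD replicate 1 or 2 or WTCKD + RNLS replicate 1 the counts were 6, 7 and 6. Of the 12, the 2 that fell most were genes of fuel use. Pdk4, the kinase that inhibits pyruvate dehydrogenase and so glucose oxidation, stood at 753, 516 and 1347 CPM in WTCKD and at 102, 77.2 and 76.6 in WTCKD + RNLS, and fell by 3.35 on the log2 scale (SE 0.40, adjusted p = 0.00041). Angptl4, a secreted inhibitor of lipoprotein lipase, stood at 13.5, 6.89 and 35.1 CPM and at 1, 0.65 and 0.306, and fell by 4.83 (SE 0.76, adjusted p = 0.00295). Of the 26 genes of the insulin, IGF and AKT arm, 3 fell and 2 rose. Irs1, the partner of Irs2 as an insulin receptor adaptor, fell by 0.88 (SE 0.14, adjusted p = 0.00278), the growth factor Igf1 by 0.84 (SE 0.23, adjusted p = 0.0488) and the kinase Sgk3 by 0.44 (SE 0.11, adjusted p = 0.0289). Pik3r1 rose by 1.17 (SE 0.14, adjusted p = 0.000416), to 240, 169 and 204 CPM.

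Single genes of the other lists passed in WTCKD + RNLS against WTCKD. Atg14, a subunit of the kinase complex that starts autophagosomes, fell by 0.56 (SE 0.13, adjusted p = 0.0244), and Selenop, a selenium carrier, by 0.37 (SE 0.09, adjusted p = 0.0207). They were 1 of 23 autophagy genes (4.35%) and 1 of 25 stress, cell cycle and death targets (4%), near the 4.47% of all genes. Smad3, the signal carrier of TGF-β and myostatin, fell by 0.64 (SE 0.12, adjusted p = 0.0085), and Eif4ebp1, a brake on translation and FoxO target, rose by 0.44 (SE 0.11, adjusted p = 0.0329). None of 18 FoxO modifiers, 10 p53 targets and 34 proteasome subunits passed with edgeR, with 3, 3 and 0 at an unadjusted p under 0.05. Pdk4, Angptl4, Irs1, Pik3r1 and Smad3 were called in 6 of 6 fits without 1 library, Atg14 in 3, Sgk3 and Selenop in 2, and Igf1 and Eif4ebp1 in 1.

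**Figure D3:**
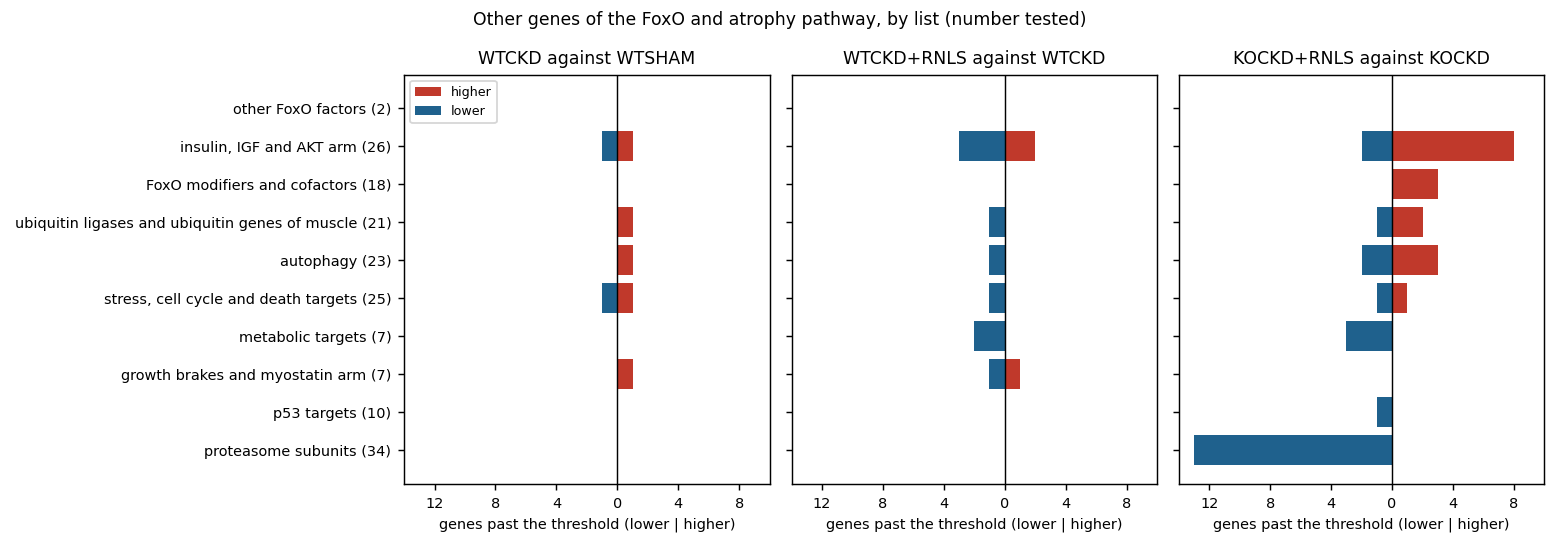
Number of genes past an adjusted p of 0.05 in each of 10 lists of other pathway genes (horizontal axis, lower to the left and higher to the right), with the number tested in brackets. Calls are few in the wild-type comparisons (7 and 12 of 171), and in KOCKD + RNLS against KOCKD (40 of 171) 13 of 34 proteasome subunits lie on the lower side. The counts are those of the fit without gene length offsets.

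In KOCKD + RNLS against KOCKD, 3 of the 10 genes were lower past the threshold (Txnip, Cdkn1a and Trim63) and 2 were higher (Foxo3 and Irs2). The share over all genes was 16.1% here, 7.04% lower and 9.05% higher. The median of the 10 was 0.11 and that over all genes -0.01. With gene length offsets, which remove a smooth trend of each library's counts on gene length, 2 of the 5 remained past the threshold, Txnip and Cdkn1a, and the count over all genes was 600 in place of 2095. Without KOCKD replicate 2 or KOCKD + RNLS replicate 2 the count was 3. Of the other pathway genes 40 of 171 passed the test, 23 lower and 17 higher, or 23.4%, and 11 did with gene length offsets and 47 with DESeq2. The fewest without a library, 13, were left without KOCKD + RNLS replicate 2, and the counts without KOCKD replicate 2 or 3 or KOCKD + RNLS replicate 1 or 3 were 19, 21, 20 and 26.

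Of the insulin, IGF and AKT arm, 8 of 26 genes rose and 2 fell in the knockout, 38.5% of the list against 16.1% of all genes. With gene length offsets the calls over all genes were 600 in place of 2095, and those of this list were not counted separately. Pik3r1 stood at 88.5, 118 and 102 CPM in KOCKD and 166, 180 and 159 in KOCKD + RNLS, a rise of 0.71 (SE 0.14, adjusted p = 0.0049). The phosphatase Phlpp2, which acts on AKT, rose by 0.72 (SE 0.21, adjusted p = 0.0302) and the mTORC2 subunit Rictor by 0.63 (SE 0.15, adjusted p = 0.0126). Igf1 fell by 0.78 (SE 0.24, adjusted p = 0.0351) and the mTORC1 activator Rheb by 0.35 (SE 0.10, adjusted p = 0.0294). Of 18 FoxO modifiers 3 rose and none fell, or 16.7%, a share near that of all genes. Ep300, the acetyltransferase p300, stood at 42.4, 46.2 and 45.3 CPM in KOCKD and 80.8, 84.9 and 81.4 in KOCKD + RNLS, with a rise of 0.88 (SE 0.11, adjusted p = 0.000823). The forkhead repressor Foxk1 rose by 0.52 (SE 0.14, adjusted p = 0.024) and Prkaa2, the catalytic subunit of AMP kinase in muscle, by 0.51 (SE 0.11, adjusted p = 0.00676). Ep300, Prkaa2 and Pik3r1 were called in 6 of 6 fits without 1 library, Phlpp2 and Rictor in 4, Foxk1 in 2, Rheb in 1 and Igf1 in 0.

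Genes of protein breakdown moved both ways in the knockout. Of 34 proteasome subunits 13 fell and none rose, or 38.2%, with a median of -0.28 over the list. Fewer pathway genes in all than these 13 remained past the threshold with gene length offsets, as given above. The largest falls were those of the catalytic core subunit Psmb6 (-0.56, SE 0.12, adjusted p = 0.00613), which stood at 136, 180 and 170 CPM in KOCKD and 118, 108 and 104 in KOCKD + RNLS, of Psmb4 (-0.46, SE 0.09, adjusted p = 0.0056) and of the catalytic subunit Psmb7 (-0.40, SE 0.10, adjusted p = 0.0144). Of 21 muscle ubiquitin ligases and ubiquitin genes 14.3% were past the threshold, also near the share of all genes, and the ligase Ubr2 rose by 0.58 (SE 0.12, adjusted p = 0.00523) and the ligase Nedd4 by 0.26 (SE 0.08, adjusted p = 0.0324). Of 23 autophagy genes 21.7% were past the threshold, and the autophagy kinases Ulk1 (0.55, SE 0.08, adjusted p = 0.0015) and Ulk2 (0.35, SE 0.09, adjusted p = 0.0212) rose. The lysosomal protease Ctsl (-0.42, SE 0.11, adjusted p = 0.0179) and Map1lc3a (-0.35, SE 0.11, adjusted p = 0.0368), an LC3 protein of the autophagosome, fell. Psmb4, Psmb6, Ubr2 and Ulk1 were called in 6 of 6 fits without 1 library, Psmb7 in 4, Ulk2 and Ctsl in 2, and Nedd4 and Map1lc3a in 1.

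Of 7 metabolic targets 3 fell in the knockout, or 42.9%, against 16.1% of all genes. Pdk4 stood at 515, 173 and 465 CPM in KOCKD and 119, 105 and 78.1 in KOCKD + RNLS, and fell by 1.93 (SE 0.38, adjusted p = 0.00477). Angptl4 stood at 17.1, 4.29 and 14.3 CPM and at 1.54, 0.91 and 1.22, and fell by 3.28 (SE 0.70, adjusted p = 0.0071). Both were called in 6 of 6 fits without 1 library. Pck1, the gluconeogenic enzyme of liver and fat, was also called (adjusted p = 0.0415), in 1 of 6 such fits, at 8.75, 0 and 1.77 CPM in KOCKD and 0.244, 0 and 0 in KOCKD + RNLS, and its groups overlapped. It had no counts in KOCKD replicate 2, where the 5 adipocyte markers summed to 0 CPM, whereas they summed to 17 and 17.7 in KOCKD replicates 1 and 3. Of 25 stress, cell cycle and death targets 2 passed, or 8%, a share under that of all genes. Cited2 fell by 0.44 (SE 0.12, adjusted p = 0.0193) and Nampt, an enzyme of NAD synthesis, rose by 0.37 (SE 0.10, adjusted p = 0.0226), each called in 2 of 6 fits. Of 10 p53 targets 1 passed, or 10%, also under the share of all genes. This was Phlda3, which fell by 0.63 (SE 0.20, adjusted p = 0.0438), called in 1 of 6. Of 7 growth brakes and genes of the myostatin arm none passed or had an unadjusted p under 0.05.

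Marker lists also moved with RNLS treatment. Over all genes, 4.47% were past the threshold with RNLS in the wild type and 16.1% in the knockout. Of 10 clock genes that peak towards evening, 8 were past the threshold with RNLS in each genotype (8 higher in the wild type, 7 higher and 1 lower in the knockout). Their sum was 662, 478 and 327 CPM in WTSHAM, 408, 466 and 464 in WTCKD, 1040, 827 and 961 in WTCKD + RNLS, 536, 423 and 857 in KOCKD and 891, 1080 and 1104 in KOCKD + RNLS. In the same order of hearts, Foxo3 stood at 144, 98 and 101 CPM in WTSHAM and at 120, 111 and 132 in WTCKD. It stood at 191, 146 and 185 in WTCKD + RNLS, 115, 117 and 113 in KOCKD and 182, 195 and 167 in KOCKD + RNLS. Whether Foxo3 goes with the sum of these clock genes was not tested. Of 8 genes raised by fasting in muscle, 3 fell with RNLS in the wild type and 4 in the knockout. Pdk4 and Angptl4, already described as metabolic targets, are among them in both, and the others were Ucp3 (-2.59 and -1.41) and, in the knockout, Acot1 (-1.30). The sum of the list, most of it Pdk4 in the hearts where it was highest, lay between 219 and 313 CPM in the 6 RNLS-treated hearts and between 334 and 1726 in the 9 others. Endothelial markers summed to between 1351 and 1529 CPM in WTCKD and between 1054 and 1145 in WTCKD + RNLS, with 5 of 7 lower past the threshold, and 2 of 7 lower and 1 higher in the knockout. Of 8 fibroblast markers, 2 were lower past the threshold in each genotype, Col1a1 (-0.95 and -1.10) and Col3a1 (-1.72 and -1.58). In the wild type all 8 were below 0, with 5 at an unadjusted p under 0.05. In the knockout 5 were below 0 and 3 above, with 2 at an unadjusted p under 0.05. The list summed to 2978, 3784 and 2360 CPM in WTCKD, 2333, 1812 and 2590 in WTCKD + RNLS, 2847, 2077 and 2146 in KOCKD and 2428, 2247 and 2138 in KOCKD + RNLS. Of 6 cardiomyocyte markers none was past the threshold in the wild type, with 3 at an unadjusted p under 0.05, and in the knockout Myh6 (0.52) and Ryr2 (0.34) were higher past it. That list summed to between 72104 and 83859 CPM in WTCKD and between 89983 and 96185 in WTCKD + RNLS, and to between 71910 and 76794 in KOCKD and between 83426 and 87381 in KOCKD + RNLS. Atrial markers summed to 1254, 2332 and 84.7 CPM in WTCKD and 123, 121 and 474 in WTCKD + RNLS, with 0 of 4 tested past the threshold. They summed to 441, 116 and 2649 CPM in KOCKD and 151, 286 and 128 in KOCKD + RNLS, with 3 of 4 tested lower past the threshold. Red cell transcripts summed to 38, 107 and 46.4 CPM in WTCKD and 527, 476 and 217 in WTCKD + RNLS. There 5 of 5 were higher at an unadjusted p under 0.05 and 1 was past the threshold. In the knockout 0 of 5 were past it. The part of day time, feeding, cell composition, red cells and atrial tissue in the differences of the FoxO genes was not tested.

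Between KOCKD and WTCKD, the comparison of the genotypes under CKD, no gene of the 13021 was past the threshold with edgeR (0%), 1318 had an unadjusted p under 0.05, and 8 were past the threshold with DESeq2. Among the 10 genes, as a description, the 95% interval left out 0 for Foxo1 at -0.38 (SE 0.09) and Cdkn1a at -0.78 (SE 0.26). KOCKD hearts lay under all WTCKD hearts for Foxo1, and overlapped with them for Cdkn1a. The differences of the other 8 ranged from -0.68 (SE 0.33) for Depp1 to 0.05 (SE 0.22) for Txnip. Of the other pathway genes none of 171 passed with edgeR or DESeq2 and 24 had an unadjusted p under 0.05, and without KOCKD replicate 2 edgeR called 1. In KOCKD + RNLS against WTCKD + RNLS, 0.338% of all genes were past the threshold, 0.146% higher and 0.192% lower. Fbxo32 was the 1 of the 10 genes past it. None of the other 171 pathway genes passed with edgeR, 34 had an unadjusted p under 0.05, and 5 passed with DESeq2.

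Whether RNLS acted differently in the 2 genotypes was tested as an interaction. No gene passed with edgeR (0%), 2288 of 13021 had an unadjusted p under 0.05, and 359 passed with DESeq2. Of the 10 genes, again as a description, Fbxo32 (0.60, SE 0.13), Foxo1 (0.57, SE 0.13) and Pik3ip1 (0.58, SE 0.22) had a 95% interval above 0. Each had a higher value in the knockout. Fbxo32 and Foxo1 were past the threshold with DESeq2 (0.59 and 0.56). For Foxo3, Trim63, Txnip and Cdkn1a the differences were 0.14 (SE 0.19), 0.11 (SE 0.14), 0.11 (SE 0.31) and -0.06 (SE 0.39). Their 95% intervals were -0.26 to 0.54 for Foxo3 and -0.20 to 0.41 for Trim63. They were wider for Txnip, -0.54 to 0.76, and for Cdkn1a, -0.88 to 0.76. Depp1 (0.69, SE 0.48), Irs2 (0.72, SE 0.40) and Sesn1 (-0.12, SE 0.17) had intervals that included 0 as well. Of the other pathway genes, none of 171 passed with edgeR, 46 had an unadjusted p under 0.05, and 8 passed with DESeq2.

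**Figure D4:**
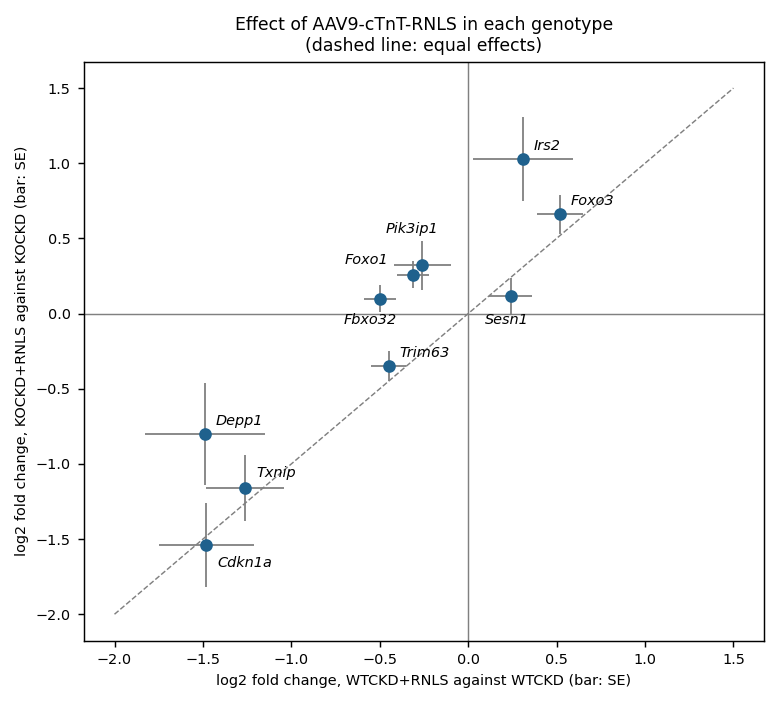
Log2 fold change with RNLS in the wild type (horizontal axis) and the knockout (vertical axis) for the 10 genes, with SE bars and a dashed line of equal effects. Foxo3, Trim63, Txnip, Cdkn1a and Sesn1 lie near the line, with effects that differ between the genotypes by -0.12 (Sesn1, SE 0.17) to 0.14 (Foxo3, SE 0.19). Fbxo32, Foxo1 and Pik3ip1 lie above it, with values of -0.50, -0.31 and -0.26 in the wild type and 0.10, 0.26 and 0.32 in the knockout. Irs2 (0.72, SE 0.40) and Depp1 (0.69, SE 0.48) lie farther above it with larger SEs.

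Across the 15 libraries the 10 genes did not follow 1 pattern. Pearson correlations of log2 CPM between them ran from -0.70 (Foxo3 and Cdkn1a) to 0.72 (Trim63 and Txnip), as a description of libraries that share their group and treatment. After the group means were subtracted, these became 0.09 and -0.36. Foxo1 and Fbxo32 had 0.64 over all libraries and 0.71 within groups, the highest within-group value of the 45 pairs. Fbxo32 and Trim63 had 0.63 and 0.34. Over 11614 genes with a mean log2 CPM above 1 and outside the 10, those most like Foxo1 in their levels were Wdr19 (0.842, and 0.812 within groups), Gabpa (0.80 and 0.834) and Tmem127 (0.796 and 0.498). The ones most like Fbxo32 were Tnip1 (0.909 and 0.422), Clint1 (0.887 and 0.625) and Septin10 (0.862 and 0.549). For Trim63 they were Selenop (0.924 and 0.73), Hexa (0.917 and 0.734) and Tmem171 (0.892 and 0.679), and for Depp1 they were Trmt5 (0.843 and 0.753), Ubap1 (0.841 and 0.70) and Ccndbp1 (0.837 and 0.694).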

How the data were processed

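Gene counts of 15 heart libraries were used, 3 in each of 5 groups taken from the sample titles. The authors trimmed reads with Trimmomatic, mapped them with hisat2 and counted them per gene with htseq-count, and deposited raw counts, without normalization, and FPKM per library. Their text names mm9 and the submitters' processing notes list GRCm39. Gene positions are those of the GENCODE vM1 annotation on mm9, which held 86.2% of the symbols, and may not be those of the counting. Its exon lengths differ for some genes from those behind the deposited FPKM, which touches the antisense overlaps given. The counting's annotation, versions and strand option are not given in the sources used here.

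R 4.3.3 with edgeR 4.0.16 (TMM factors 0.925 to 1.05, filterByExpr at min.count 10 and min.total.count 15, quasi-likelihood test, group as the only term, all libraries) gave the main results, with Benjamini-Hochberg adjustment over 13021 genes. The labels give 1 sample name per library and nothing else on its origin, so p-values measure the spread between these samples, which may be technical. Alternatives were no filter, RLE scaling, the replicate number as a block, gene length offsets, DESeq2 1.42.0, only the groups compared, and leaving out each library. The code was tested on simulated data. Python 3.11.15 with pandas 2.3.3 and matplotlib 3.10.9 made tables and figures.

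The 10 genes, the pathway and marker lists and the rules were chosen with earlier results of these data known. Named beside the 10 were Foxo4, Foxo6 and, per comparison and list, among those past an adjusted p of 0.05, the 3 that rose most and the 3 that fell most, and for Foxo1, Fbxo32, Trim63 and Depp1 the 3 most correlated genes. Of the pathway lists, 176 of 177 genes were matched, and Igfbp1 was not analysed here. Some genes that this rule names are not reported here. The planned search of proteins for AKT sites was not run.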

Additional observations from a re-analysis of the deposited data

Results flagged for a closer look

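In 3 genes the 3 hearts with RNLS lay under all 3 vector hearts in one genotype and above them in the other, a pattern found in 156 of 13021 genes (1.2%) and in 3 of the 181 tested genes described here (1.66%). For Foxo1 the difference of the RNLS effect, knockout minus wild type, was 0.57 on the log2 scale (SE 0.13). For Atg14 it was 0.80 (SE 0.19, adjusted p = 0.119), with 16.7, 16.9 and 15.4 CPM in WTCKD, 10.8, 9.01 and 13.3 in WTCKD + RNLS, 12.9, 11.5 and 12.8 in KOCKD and 13.5, 15 and 15.6 in KOCKD + RNLS. For Itch, a ubiquitin ligase, it was 0.33 (SE 0.14, adjusted p = 0.236), with 38.2, 38 and 42.5 CPM in WTCKD, 33, 36 and 38 in WTCKD + RNLS, 32, 33 and 33.3 in KOCKD and 41.2, 36.1 and 34 in KOCKD + RNLS. The lowest WTCKD and the highest WTCKD + RNLS heart were equal in Itch at the digits given, and differ only before rounding. None of these differences was past the adjusted threshold in edgeR's interaction test.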

How the results depend on the processing

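Over 6 comparisons and all settings, the 10 genes gave 780 values besides the reported ones, of which 726 kept their side of the threshold, 46 lost it, 8 gained it and 0 changed direction while called. RLE scaling and no filter changed none of them. The counts of called genes changed as follows, first among the 10 genes and then among the 171 others. For WTCKD against WTSHAM (4 and 7), only the groups compared gave 1 and 1, DESeq2 gave 11 of the others, and fits without 1 library gave 1 to 3 and 1 to 9. For WTCKD + RNLS against WTCKD (6 and 12), only the groups compared gave 7 of the others, and fits without 1 library gave 3 to 6 and 6 to 12. For KOCKD + RNLS against KOCKD (5 and 40), length offsets gave 2 and 11, only the groups compared gave 62 of the others, and fits without 1 library gave 3 to 5 and 13 to 27. For KOCKD against WTCKD (0 and 0), fits without 1 library gave 0 to 1 of the others. For KOCKD + RNLS against WTCKD + RNLS (1 and 0), the replicate block, length offsets and only the groups compared gave 0 of the 10, DESeq2 gave 2 and 5, and each fit without 1 library gave 0. For the interaction (0 and 0) DESeq2 gave 2 and 8. The causes were not tested, other than that fits without a library or on fewer groups hold fewer samples.

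Replicate numbers did not pair the libraries, since the deviations of same-numbered libraries from their group means correlated between -0.36 and 0.334 (median -0.037, 30 pairs), and 4 of 15 libraries correlated best with their own number. With the replicate block, 2 of 60 values lost the threshold, Fbxo32 in WTCKD against WTSHAM (0.38) and in KOCKD + RNLS against WTCKD + RNLS (0.44). At 3 hearts a group, a difference that missed the threshold is not shown to be absent.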
